A study of Homo sapiens with 10 samples.

Results

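Expression of p53 pathway genes was examined in DU145 cells after knockdown of SOX4. The genes were MDM2, CDKN1A, GDF15, GADD45A, TP53I3, TP53INP1, SESN1, ZMAT3 and RRM2B, taken by symbol from the RNA-seq table, and all 9 have a row among its 13527 features. The study lowers or raises SOX4, an SRY-related transcription factor, in DU145, an established line of human prostate cancer cells, in connection with the neuroendocrine state. Measured here was poly-A RNA of cells carrying a scramble control hairpin (shCon, 3 libraries) or a hairpin that knocks down SOX4 (shSOX4, 3 libraries), both grown in serum-containing medium with no other treatment. A further 4 ATAC-seq libraries, with an empty vector or SOX4 overexpression, were not analysed here. The labels name no clone, hairpin sequence or separate cultures, and they describe 2 RNA library kits without tying either to a library. The p-values therefore rest on differences among 3 libraries a group, which may be technical only.

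p53 is a transcription factor that stress signals stabilise and that switches on genes for cell cycle arrest, DNA repair, metabolism and cell death. MDM2 is both its target and the ubiquitin ligase that marks it for destruction, which closes a feedback loop. Other transcription factors can also drive many of these genes. DU145 is a line with mutant p53, and the part of p53 in the results that follow was not tested.

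Promoter sequences were taken from RefSeq (GRCh38.p14, a newer build than the hg19 of the RNA-seq files) to show what lies before their starts. The table held 12 windows for 6 of the 9 genes, and GADD45A, TP53INP1 and RRM2B were not matched. In the 250 bases before each start, both strands were searched for the full p53 consensus (both decamers, no spacer, the fixed C and G of each decamer kept, at most 3 mismatches), for AACAAAG, the core bound by SOX proteins, for TGACTCA, the AP-1 site, for TATAAA and for GGGCGG, the GC box. A p53 match is in 0.914% of all 35116 windows, AACAAAG in 4.5%, TGACTCA in 4.2%, TATAAA in 10.7% and GGGCGG in 42.6%. Among the genes, a p53 match lay before the inner start of MDM2 (2 mismatches) and before the most downstream start of SESN1 (3 mismatches). AACAAAG was found before the upstream start of ZMAT3 and not before its downstream start. TGACTCA was found before the inner start of MDM2, and TATAAA before GDF15. The TGACTCA of MDM2 lies just before its p53 match, without overlap, and 5 of the genes hold a GC box. Each match describes letters only, and absence from a window says nothing of sites elsewhere in the gene.

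Sequences of genes that rose are shown in lower case with the p53, AACAAAG or TATAAA match in capitals, 5′ to 3′. They are the outer promoter of MDM2 (chr12:68807922-68808171, plus strand), which has no p53, SOX or TATA match, and its inner promoter (chr12:68808767-68809016, plus strand). In the inner promoter the p53 match starts 94 bases before the start. A stretch before the most downstream start of SESN1 (chr6:109009013-109009042, minus strand) surrounds its p53 match. Next come the promoter of GDF15 (chr19:18385908-18386157, plus strand) with its TATAAA, and the upstream promoter of ZMAT3 (chr3:179071810-179072059, minus strand). In the latter, CTTTGTT is AACAAAG read on the other strand.
MDM2 outer: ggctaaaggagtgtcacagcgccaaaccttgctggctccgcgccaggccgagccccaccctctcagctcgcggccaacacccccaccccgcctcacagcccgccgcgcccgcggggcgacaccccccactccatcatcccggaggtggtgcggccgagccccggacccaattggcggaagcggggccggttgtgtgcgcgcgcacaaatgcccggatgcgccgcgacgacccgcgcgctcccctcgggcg
MDM2 inner: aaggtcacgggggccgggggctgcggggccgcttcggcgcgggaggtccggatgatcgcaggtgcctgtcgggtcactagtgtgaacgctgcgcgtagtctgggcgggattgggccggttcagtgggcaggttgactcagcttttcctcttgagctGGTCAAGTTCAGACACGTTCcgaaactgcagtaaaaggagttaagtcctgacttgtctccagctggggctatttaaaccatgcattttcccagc
SESN1 downstream: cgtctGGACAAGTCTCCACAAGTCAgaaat
GDF15: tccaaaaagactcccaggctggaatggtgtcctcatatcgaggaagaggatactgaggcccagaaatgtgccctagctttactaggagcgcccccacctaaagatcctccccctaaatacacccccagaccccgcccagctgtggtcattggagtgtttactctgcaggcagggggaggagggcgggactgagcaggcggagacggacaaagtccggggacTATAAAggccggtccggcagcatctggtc
ZMAT3: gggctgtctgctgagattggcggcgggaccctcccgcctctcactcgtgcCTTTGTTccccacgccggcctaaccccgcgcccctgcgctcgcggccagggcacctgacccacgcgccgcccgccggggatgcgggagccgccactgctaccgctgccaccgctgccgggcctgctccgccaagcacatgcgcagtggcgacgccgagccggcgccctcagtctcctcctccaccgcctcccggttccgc

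The 6 libraries held 31189910 to 43361609 counts each. SOX4 itself, the targeted gene, stood at 8.48 to 12.9 CPM (counts scaled to library size, here with TMM factors) in shCon and 4.55 to 6.44 CPM in shSOX4, with no overlap (log2 fold change -0.89, adjusted p = 0.0111, edgeR). Without shCon 1 that fall was 0.71 on the log2 scale and missed the threshold (adjusted p = 0.0598, edgeR). On the second principal component of log2 CPM, with 15.7% of the variance, shCon 3 and shSOX4 1 lay apart from the rest. All 5 epithelial markers had rows and moved apart, with 2 up, 2 down and a median log2 fold change of -0.39. KRT8 and KRT18 rose and carry the sum (2958 to 4388 CPM in shCon, 6813 to 7707 CPM in shSOX4), while CDH1 fell by 1.28 (adjusted p = 0.0029, edgeR) and EPCAM by 0.83 (adjusted p = 0.0279, edgeR). For other cell types the table held CD68 alone of 5 leukocyte markers (95.2 to 113 CPM in shCon, 44.1 to 52.1 in shSOX4) and CDH5 alone of 4 endothelial markers (0.525 to 0.942 against 4.7 to 6.62). Of 6 fibroblast markers 3 had rows, COL1A1, LUM and PDGFRB, summing to 1.69 to 2.48 CPM in shCon and 9.55 to 16 in shSOX4. The defining markers PTPRC, PECAM1, VWF and DCN were not analysed here. The neuronal markers in the table, 2 of 5, summed to 196 to 319 and 244 to 277 CPM. The part of these markers in the results that follow was not tested, and in bulk RNA fewer cells and less RNA per cell cannot be told apart.

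Most of the genes were higher after SOX4 knockdown. MDM2, GDF15, TP53I3, ZMAT3 and SESN1 rose, GADD45A fell, and CDKN1A, RRM2B and TP53INP1 did not pass the test (edgeR, Benjamini-Hochberg adjusted p under 0.05 over all features). Thus 6 of 9 were called, where 32.8% of all features were called, 5 upward (17% of all features) and 1 downward (15.8% of all features). The median log2 fold change of the 9 was 0.72, beside -0.01 over all features. In 7 of 9 the CPM of the groups did not overlap, as in 47% of all features. The number that rose was 3 without shSOX4 2, where SESN1 and ZMAT3 missed the threshold. Over all features, 1411 rose in that fit, against 2295 with all libraries.

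**Figure D1:**
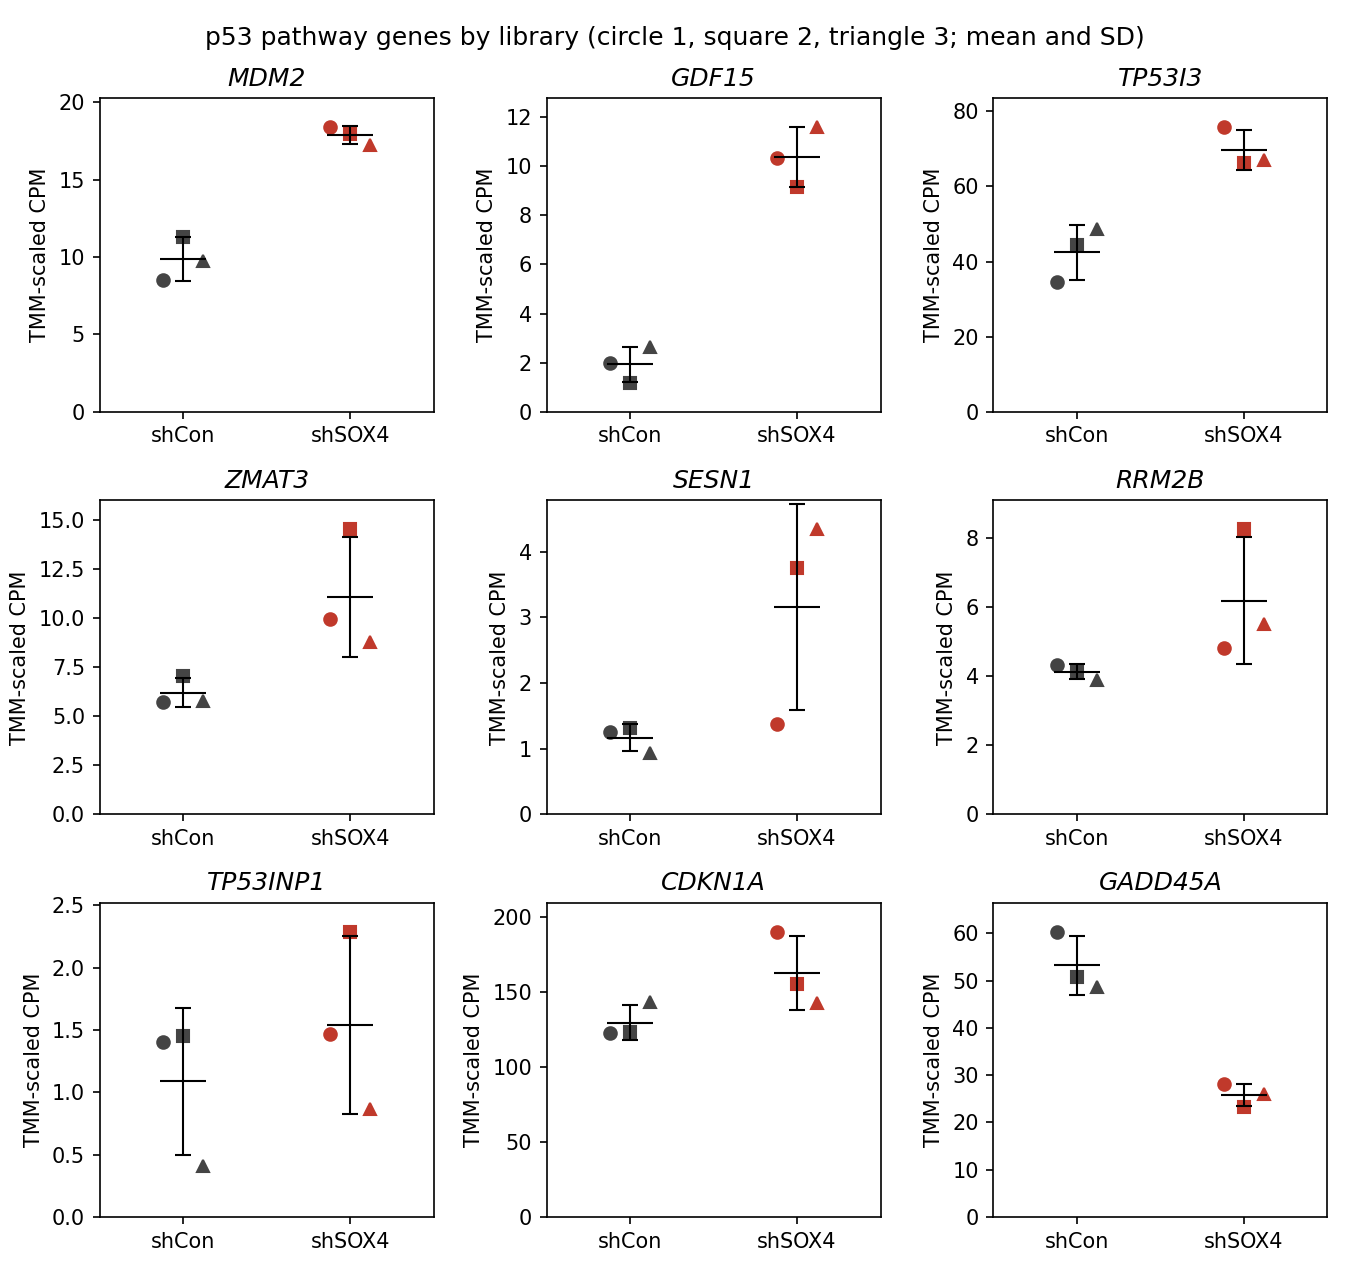
TMM-scaled CPM (linear axis from 0) of each of the 9 genes in the 3 shCon and 3 shSOX4 libraries, with mean and SD. GDF15 lay between 1.18 and 2.62 CPM in shCon and between 9.16 and 11.6 in shSOX4, and GADD45A was lower in every shSOX4 library.

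MDM2 (ENSG00000135679, chromosome 12), the ligase that restrains p53, was measured at 8.5, 11.3 and 9.77 CPM in shCon 1, 2 and 3 and at 18.4, 17.9 and 17.2 CPM in shSOX4 1, 2 and 3. All shSOX4 libraries lay above all shCon libraries, and the shSOX4 values were close together. The group means were 9.86 ± 1.41 and 17.9 ± 0.596 CPM (SD, n = 3). MDM2 rose with a log2 fold change of 0.86 (SE 0.195, 95% interval 0.44 to 1.28, adjusted p = 0.00485, edgeR), and the value was 0.76 to 0.97 without any 1 library, passing each time. On the log2(FPKM + 1) scale, which understates changes of low genes, it was 0.46 (adjusted p = 0.0338, limma).

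GDF15 (ENSG00000130513, chromosome 19) encodes a secreted cytokine of the TGF-beta superfamily that many kinds of cell stress induce. Its level was 1.99, 1.18 and 2.62 CPM in shCon 1, 2 and 3, from 91, 44 and 90 counts. In shSOX4 1, 2 and 3 it was 10.3, 9.16 and 11.6 CPM, from 352, 296 and 390 counts. The lowest shSOX4 library was thus well above the highest shCon library. GDF15 rose with a log2 fold change of 2.42 (SE 0.288, 95% interval 1.81 to 3.04, adjusted p = 3.46e-05, edgeR), to 536% of its control level, and was the only one of the 9 genes apart from SESN1 whose change exceeded 1.29, the 95th percentile of all features. Leaving out 1 library moved it between 2.17 and 2.70.

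TP53I3 (ENSG00000115129, chromosome 2), a quinone oxidoreductase first found as a p53-induced gene, stood at 34.4, 44.3 and 48.6 CPM in shCon 1, 2 and 3 and at 75.9, 66.1 and 66.9 CPM in shSOX4 1, 2 and 3. The groups did not overlap. TP53I3 rose with a log2 fold change of 0.72 (standard error 0.181, adjusted p = 0.00881, edgeR), to 164% of control, and passed without any 1 library (highest adjusted p = 0.0431, edgeR).

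ZMAT3 (ENSG00000172667, chromosome 3), a zinc finger protein that binds RNA, gave 5.74, 7.04 and 5.77 CPM in shCon 1, 2 and 3 and 9.94, 14.5 and 8.75 CPM in shSOX4 1, 2 and 3. Every shSOX4 library was above every shCon library, and shSOX4 2 stood highest. ZMAT3 rose with a log2 fold change of 0.84 (standard error 0.236, adjusted p = 0.0152, edgeR). The call was lost without shSOX4 2 (log2 0.60, adjusted p = 0.111, edgeR) and without shCon 1 (log2 0.79, adjusted p = 0.0506, edgeR). On the log2(FPKM + 1) scale the difference was 0.51 (adjusted p = 0.0498, limma).

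SESN1 and TP53INP1 belong to the stress arm of the pathway, SESN1 as a sestrin that restrains mTORC1 and TP53INP1 as a nuclear cofactor that also acts in autophagy. SESN1 (ENSG00000080546, chromosome 6) was measured at 1.25, 1.32 and 0.933 CPM in shCon 1, 2 and 3 and at 1.38, 3.74 and 4.35 CPM in shSOX4 1, 2 and 3. The groups did not overlap, but shSOX4 1 lay next to the controls, 1.51 below the other shSOX4 libraries on the log2 scale, a distance far outside the quartiles of all features in that library (-0.31 and 0.28). It reached 1 CPM in 2 libraries of shCon and 3 of shSOX4, so its shCon libraries alone would not have met the minimum of 3 libraries that every feature of the table meets. SESN1 rose with a log2 fold change of 1.43 (SE 0.408, 95% interval 0.56 to 2.30, adjusted p = 0.0162, edgeR). The call was lost without shSOX4 2 (log2 1.29, adjusted p = 0.0624, edgeR) or shSOX4 3 (log2 1.14, adjusted p = 0.0845, edgeR), and without both shCon 3 and shSOX4 1 the value was 1.66 (adjusted p = 0.0013, edgeR).

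TP53INP1 (ENSG00000164938, chromosome 8) was the scarcest of the 9, with 64, 54 and 14 counts in shCon 1, 2 and 3 and 50, 74 and 29 in shSOX4 1, 2 and 3. In CPM these were 1.4, 1.45 and 0.408 against 1.47, 2.29 and 0.863, so the groups overlapped. Its difference was 0.49 on the log2 scale (SE 0.478, 95% interval -0.53 to 1.51, adjusted p = 0.454, edgeR). The interval is wide and includes a change in either direction. In shCon 3 it lay 1.68 below the other shCon libraries on the log2 scale, and without shSOX4 2 the difference was 0.09 (adjusted p = 0.927, edgeR).

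RRM2B (ENSG00000048392, chromosome 8), the ribonucleotide reductase subunit that supplies deoxynucleotides outside S phase, stood at 4.34, 4.14 and 3.91 CPM in shCon 1, 2 and 3 and at 4.81, 8.26 and 5.51 CPM in shSOX4 1, 2 and 3. The groups did not overlap, yet the shSOX4 libraries were spread widely. The difference was 0.58 on the log2 scale (SE 0.258, 95% interval 0.03 to 1.14) and missed the threshold (adjusted p = 0.0957, edgeR). It passed without shSOX4 1 (log2 0.75, adjusted p = 0.0389, edgeR) and without both shCon 3 and shSOX4 1 (log2 0.70, adjusted p = 0.047, edgeR), and was 0.32 without shSOX4 2 (adjusted p = 0.451, edgeR).

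CDKN1A and GADD45A, the genes of the arrest arm, did not move together. CDKN1A (ENSG00000124762, chromosome 6) encodes p21, which inhibits cyclin-dependent kinases. It was the most abundant of the 9, with 122, 123 and 143 CPM in shCon 1, 2 and 3 and 190, 155 and 142 CPM in shSOX4 1, 2 and 3. The groups overlapped, since shSOX4 3 fell just under shCon 3. The difference was 0.33 on the log2 scale (SE 0.165, 95% interval -0.02 to 0.68, adjusted p = 0.139, edgeR), and it passed in none of the 17 alternatives. In FPKM (fragments scaled to gene length and library size) the same libraries did not overlap, with 53.1 to 55.4 in shCon and 59.4 to 78.2 in shSOX4 (log2(FPKM + 1) difference 0.33, adjusted p = 0.0988, limma).

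GADD45A (ENSG00000116717, chromosome 1), a stress sensor that binds PCNA and cell cycle kinases, went the other way. It gave 60.4, 50.7 and 48.7 CPM in shCon 1, 2 and 3 and 28, 23.3 and 26.1 CPM in shSOX4 1, 2 and 3. The groups were far apart, with every shSOX4 library under every shCon library. GADD45A fell with a log2 fold change of -1.05 (SE 0.179, 95% interval -1.43 to -0.66, adjusted p = 0.000752, edgeR), and 48.5% of the control level was left. It passed without any 1 library (highest adjusted p = 0.00847, edgeR), and it was the only one of the 9 with a negative value.

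**Figure D2:**
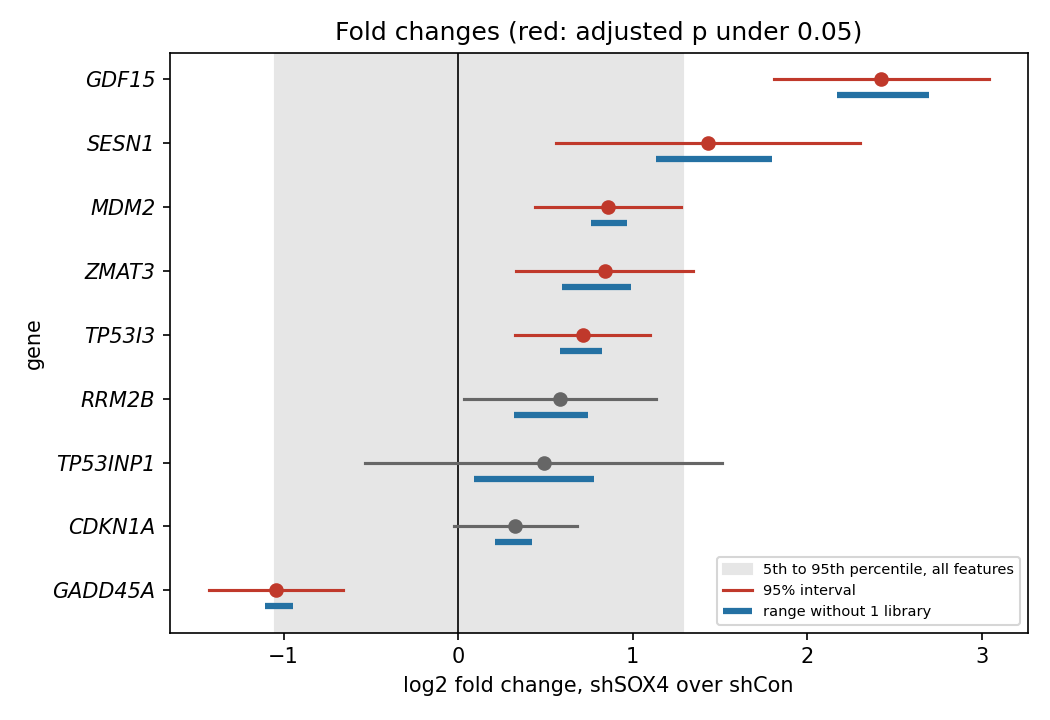
Log2 fold change of shSOX4 over shCon for each gene (points) with its 95% interval (thin lines), the range when any 1 library was left out (thick lines) and the band from the 5th to the 95th percentile of all features (-1.05 to 1.29). GDF15 (2.42) and SESN1 (1.43) lay above the band, and GADD45A (-1.05) at its lower edge.

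Per gene length the 9 genes fell into an abundant and a scarce set, on the scale of the deposited FPKM. In shCon, CDKN1A averaged 54 ± 1.23, GADD45A 33.3 ± 5.56 and TP53I3 23.6 ± 3.64 FPKM (SD, n = 3 each), and none of these overlapped its neighbour. GDF15 followed with 1.48 ± 0.491 FPKM. RRM2B (0.785 ± 0.0856), MDM2 (0.746 ± 0.149) and ZMAT3 (0.682 ± 0.137) overlapped one another, as did SESN1 (0.308 ± 0.0733) and TP53INP1 (0.181 ± 0.104). CDKN1A stood at the 87.9th percentile of all features in shCon and MDM2 at the 13.8th. In shSOX4 the order changed at the top, with TP53I3 at 39 ± 3.44 FPKM above GADD45A at 16.2 ± 0.886 FPKM, and GDF15 reached 8.07 ± 0.709 FPKM. The ratio of count to FPKM, constant for a gene once library factors are removed, varied 1.28-fold for ZMAT3, 1.17-fold for RRM2B, 1.16-fold for SESN1 and 1.09-fold for MDM2 across libraries, with a median of 1.04-fold over well-counted features.

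**Figure D3:**
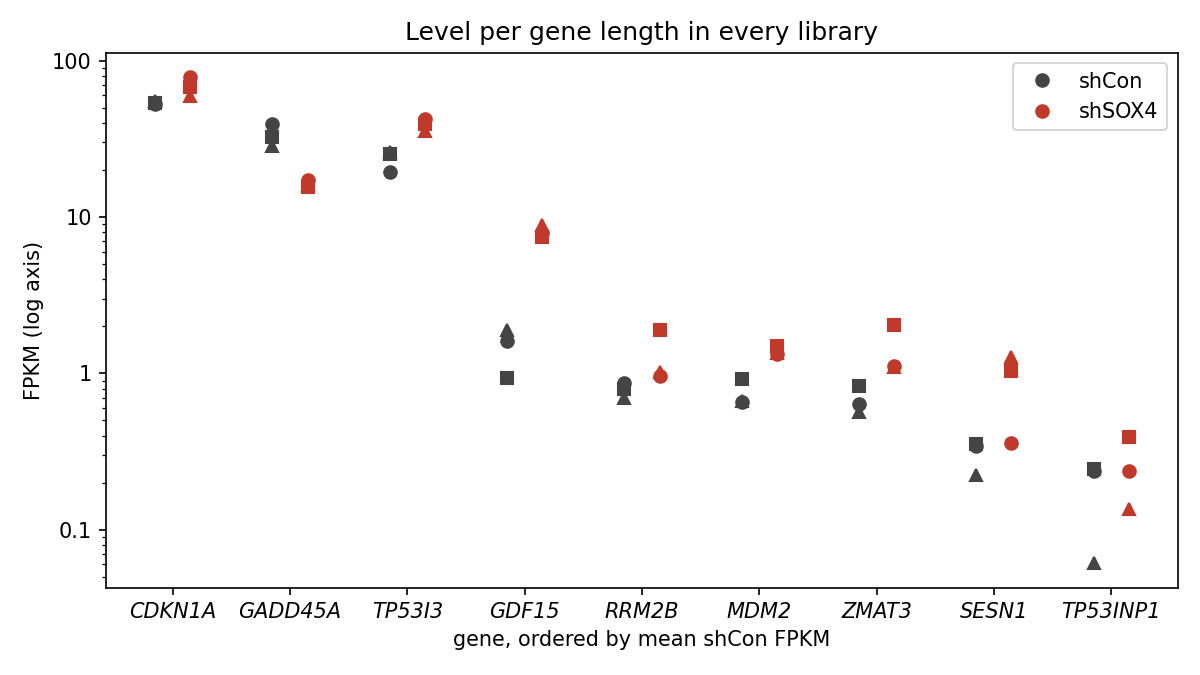
FPKM (log axis) of the 9 genes in every library (circles, squares and triangles are libraries 1, 2 and 3), ordered by mean shCon level. CDKN1A, GADD45A and TP53I3 lay at 15.4 FPKM or more in every library, while MDM2, ZMAT3, RRM2B, SESN1 and TP53INP1 stayed at or under 2.05 FPKM.

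Within shSOX4, the library with the highest value differed from gene to gene, at times by little, as for MDM2. ZMAT3, RRM2B and TP53INP1 were all highest in shSOX4 2, whereas CDKN1A, MDM2, TP53I3 and GADD45A were highest in shSOX4 1 and SESN1 and RRM2B lowest there. GDF15 and SESN1 were highest in shSOX4 3. In shCon 3, TP53INP1 and SESN1 were low (log2 -1.68 and -0.44 against the other shCon libraries) while GDF15 was high (0.75). The quartiles of all features in shCon 3 were -0.38 and 0.35. Without both libraries that lie apart, shCon 3 and shSOX4 1, 7 of the 9 were called, the same 6 and RRM2B. Over all features that fit called 5532 of 13525, against 4431 of 13527 with all libraries.

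Genes of the same families were measured beside them. Of 13 relatives 11 had rows, of which 1 rose and 2 fell, where 17% of all features rose and 15.8% fell. Beside CDKN1A, its fellow kinase inhibitor CDKN1C (p57) stood at 7.1 ± 0.728 CPM in shCon and 17 ± 5.07 CPM in shSOX4 (SD, n = 3), a rise of 1.26 on the log2 scale (adjusted p = 0.00134, edgeR). CDKN1B (p27) fell from 53.4 ± 10.6 CPM in shCon to 34.9 ± 1.19 CPM in shSOX4 (log2 -0.61, adjusted p = 0.0231, edgeR), a call lost without shCon 1, shCon 2, shSOX4 2 or shSOX4 3 (adjusted p up to 0.0911, edgeR). Beside GADD45A, GADD45B had 180 ± 22.1 and 196 ± 18.6 CPM (log2 0.12, adjusted p = 0.604, edgeR), and GADD45G 2.02 ± 0.549 and 1.17 ± 0.114 CPM (log2 -0.78, adjusted p = 0.096, edgeR).

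MDM4, the partner of MDM2 in holding p53 in check, had 6.22 ± 1.56 and 6.31 ± 1.13 CPM (log2 0.02, adjusted p = 0.96, edgeR). The sestrins SESN2 (log2 -0.30, adjusted p = 0.379, edgeR) and SESN3 (log2 -0.04, adjusted p = 0.929, edgeR) did not pass beside SESN1. RRM2, the S-phase subunit of ribonucleotide reductase, had a value of 0.18 (adjusted p = 0.475, edgeR), CRYZ, an oxidoreductase related to TP53I3, -0.03 (adjusted p = 0.935, edgeR), and ZNF385A, a zinc finger gene related to ZMAT3, -0.14 (adjusted p = 0.664, edgeR). Without passing anywhere, 4 of these changed sign when single libraries were left out: MDM4, SESN3 and ZNF385A without shCon 3, MDM4 and SESN3 also without shSOX4 2, and CRYZ without shCon 1 or shSOX4 1 and in FPKM. TP53INP2 fell (log2 -0.68, adjusted p = 0.0356, edgeR), though not without shCon 1, shCon 3, shSOX4 2 or shSOX4 3 (adjusted p up to 0.15, edgeR). Differences between relatives were not tested.

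Of 25 genes in the list of the p53 family and the regulators of p53, 23 had rows, with a median of 0.24. Of these, 7 rose and 3 fell, where 17% of all features rose and 15.8% fell. CDKN2A, whose locus encodes p16 and the MDM2 inhibitor ARF with shared exons, stood at 1085 ± 277 CPM in shCon and 516 ± 143 CPM in shSOX4 (SD, n = 3), with a log2 fold change of -1.07 (adjusted p = 0.0024, edgeR). The counts do not tell its transcripts apart. The ribosomal protein genes RPL11 and RPL5, whose products bind MDM2, rose by 1.03 (adjusted p = 0.000387, edgeR) and 0.68 (adjusted p = 0.00801, edgeR), and as genes with many processed copies their counts are uncertain. HEXIM1, an inhibitor of the elongation kinase P-TEFb, rose by 0.84 and TP53BP1, a damage response adaptor, by 0.65, the last not without shSOX4 2 or shSOX4 3 (adjusted p up to 0.104, edgeR). Without shSOX4 2, 5 of the 23 were called and 3 rose, with 2509 of all 13527 features called. Without shSOX4 3, 6 were called and 1 fell, with 2966 of all features called.

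Other p53 targets went both ways. Of 54 listed 49 had rows (SESN2 and ZNF385A are also among the relatives), 9 rose and 10 fell, with a median of -0.20. These shares stand beside the 17% and 15.8% of all features given above. Without shSOX4 2, shSOX4 3 or shCon 1, 9, 10 and 12 of the 49 were called. In the same fits 2509, 2966 and 3673 of all 13527 features were called. The counts by role that follow come from few genes each and are a description, to be read against the same shares. Of 6 secreted products 4 rose and 1 fell. The matrix protein gene THBS1 rose by 0.75, not without shSOX4 2 (adjusted p = 0.0542, edgeR), and IGFBP3, which binds insulin-like growth factors, by 0.75. LIF, a cytokine of the interleukin-6 family, fell by 1.02 (adjusted p = 0.000679, edgeR).

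Of 9 target genes of metabolism 4 fell (15.8% of all features) and 0 rose (17% of all features) by edgeR (1 rose by DESeq2, 0 by limma-voom, and 1 had an unadjusted p under 0.05 upward). GLS2, mitochondrial glutaminase, fell from 3.42 ± 0.568 CPM in shCon to 0.949 ± 0.394 CPM in shSOX4 (SD, n = 3), a log2 fold change of -1.84 (adjusted p = 0.00212, edgeR). FDXR, which passes electrons to mitochondrial ferredoxins, fell by 0.95, ALDH4A1, an enzyme of proline breakdown, by 0.77 (not without shSOX4 3, adjusted p = 0.0508, edgeR), and the metalloreductase gene STEAP3 by 0.72. Of 16 genes of cell death 2 rose and 4 fell. PMAIP1, the BH3-only protein NOXA, fell by 0.71 (adjusted p = 0.0143, edgeR) and TRIAP1, an inhibitor of apoptosome formation, rose by 0.83 (adjusted p = 0.0178, edgeR). Both calls were lost without shSOX4 2, that of PMAIP1 also without shCon 2 and that of TRIAP1 also without shSOX4 3 (adjusted p up to 0.0908, edgeR).

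Of 6 arrest genes beyond CDKN1A and GADD45A, 0 were called by edgeR, DESeq2 or limma-voom, and 1 had an unadjusted p under 0.05. Of 4 repair genes 1 rose and 1 fell. Among the remaining 8 targets 2 rose, RPS27L, a ribosomal protein S27-like gene, by 1.14 (adjusted p = 0.000379, edgeR) and ASCC3, a helicase gene, by 1.25 (adjusted p = 0.000896, edgeR). RPS27L resembles RPS27, so how reads were divided between them is uncertain.

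**Figure D4:**
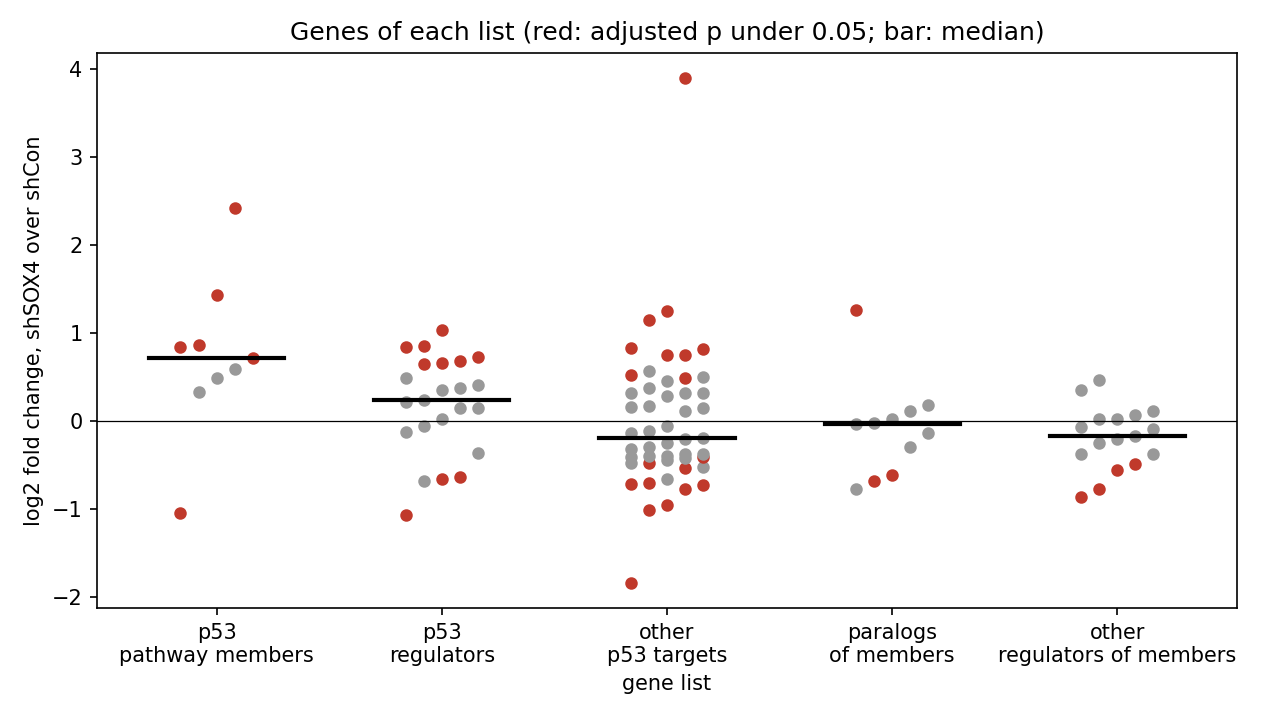
Log2 fold change of shSOX4 over shCon for every gene in the table from each list, with the median as a bar. The 9 p53 pathway genes had a median of 0.72 and the 49 other p53 targets a median of -0.20, with GLS2 lowest at -1.84.

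The list of transcriptional regulators known to act on these genes apart from p53 held 17 genes. Of these, 4 fell and 0 rose by edgeR, beside 15.8% and 17% of all features. There were also 0 up at an unadjusted p under 0.05 and by DESeq2 and limma-voom. ATF4, the factor of the integrated stress response that acts on GDF15, fell from 953 ± 61.1 CPM in shCon to 676 ± 47.2 CPM in shSOX4 (SD, n = 3), a log2 fold change of -0.50 (adjusted p = 0.0173, edgeR). That call was lost without shCon 2, shSOX4 2 or shSOX4 3 (adjusted p up to 0.0926, edgeR). JUN, a subunit of AP-1, fell by 0.78 (adjusted p = 0.00359, edgeR), KLF4 by 0.87 and SMAD3 by 0.56. KLF4 missed the threshold without shCon 1, shSOX4 1 or shSOX4 3 (adjusted p up to 0.0885, edgeR), and SMAD3 without shCon 1, shCon 2, shSOX4 1 or shSOX4 2 (adjusted p up to 0.0842, edgeR). ETS2 had a value of -0.38 (adjusted p = 0.102, edgeR).

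The authors' deposited table called the same 6 of the 9 genes at an adjusted p under 0.05. Log2 fold changes in the authors' deposited table were 2.21 for GDF15, 1.19 for SESN1, 0.82 for MDM2, 0.79 for ZMAT3, 0.69 for TP53I3 and -1.002 for GADD45A. Its adjusted p was 0.138 for CDKN1A, 0.0761 for RRM2B and 0.469 for TP53INP1 in the authors' deposited table.

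Genes with the most similar profiles were ranked by Pearson r of log2 CPM over the 6 libraries, which share their group difference, among features with a mean of at least 5 CPM. MDM2 was most like NLRC5 (r = 0.998) and ANXA8L1 (r = 0.996), and GDF15 most like DEPDC1 (r = 0.998) and GYG2 (r = 0.996). GADD45A was most like CYR61 (r = 0.998) and PHLDA1 (r = 0.997). CDKN1A was most like HAGHL (r = 0.996) and SIN3B (r = 0.992), and TP53I3 most like SNRNP25 (r = 0.998) and FUOM (r = 0.998). ZMAT3 came closest to LNPEP (r = 0.995) and TAOK1 (r = 0.991), RRM2B to PREPL (r = 0.995) and MON2 (r = 0.993), SESN1 to SLC7A6 and RSL1D1 (r = 0.995 each), and TP53INP1 to TRAPPC8 (r = 0.983) and HEATR5A (r = 0.976). With 6 libraries and 9789 or 9790 candidates such values describe these libraries only.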

How the data were processed

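RNA-seq of 6 DU145 libraries (3 shCon, 3 shSOX4) was read from a single table, whose columns NC and SH were taken as shCon and shSOX4. Raw counts, deposited as integers for each feature, were the main measure. FPKM, which the authors deposited beside them, corrects for transcript length and depth. The authors' adjusted p-value (FDR) and log2 fold change were deposited in the same table. The submitters' processing notes name hg19, HISAT2, STAR, Bowtie2, MACS2 2.1.1 and deepTools 2.07 without roles. For the counting program, annotation, strand setting and filter, a name was not given in the sources used here. Every feature has at least 1 CPM in at least 3 libraries, and SESN1 (5 libraries) and TP53INP1 (4) were the only p53 pathway genes under it anywhere. SESN1 reached it in 2 shCon and 3 shSOX4 libraries, so under the filter by group below it is kept through shSOX4 alone.

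Counts were fitted in edgeR 4.0.16 (R 4.3.3; TMM, filterByExpr, which removed 0 features, quasi-likelihood F test with group as the only term, two-sided), with Benjamini-Hochberg adjustment over all 13527 features. The fit was tested on simulated data, with the same spread for all features and changes placed only in better expressed ones. That test did not cover changes in genes as scarce as SESN1 or TP53INP1. Alternatives were RLE or total-count scaling, no filter, 1 CPM in each library of at least 1 group, limma-voom (limma 3.58.1), DESeq2 1.42.0, the replicate number as a block, limma on log2(FPKM + 1) for features averaging at least 1 FPKM, a test against a 1.5-fold change, no newGene loci (1116 unnamed features), and leaving out each library, or shCon 3 and shSOX4 1 together. The fit without 1 library pools the spread of both groups. Libraries of a group differed by 28.8 to 139 in chi-square per degree of freedom, so none was a duplicate.

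The genes, gene lists and tests were chosen with earlier results of these data known. Named in the text are the 9 genes, SOX4, every measured relative and the 2 closest profiles of each gene. Of the other lists, the 6 regulators of p53, 12 targets and 5 transcriptional regulators with the smallest p were taken. A few genes that this rule names are not reported here, though the list counts include them.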

Additional observations from a re-analysis of the deposited data

How the results depend on the processing

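Over the alternatives, 140 of 150 values of the 9 p53 pathway genes kept their direction and their side of the threshold, 8 lost and 2 gained a call, and 0 reversed. GDF15 and GADD45A passed in every alternative run. Against a 1.5-fold change, 2 of the 9 passed, 1 upward (GDF15) and 1 downward, with 1195 features in all (782 up, 413 down), 1 regulator of p53 (1 up, 0 down) and 5 other targets (3 up, 2 down). With limma on log2(FPKM + 1), 5 of 20 regulators tested (3 up) and 12 of 45 other targets tested (5 down) were called. Over all features, 3347 of 11287 were called at that setting. That filter on FPKM left SESN1 and TP53INP1 untested, and the filter of 1 CPM in each library of a group left out TP53INP1. Leaving out 1 library gave 2509 to 4966 changed features (1411 to 2653 up, 1098 to 2313 down), the fewest without shSOX4 2. It gave 4 to 7 of the 9 genes called (3 to 6 up), 5 to 11 regulators (3 to 8 up, 1 to 3 down) and 9 to 18 other targets (4 to 9 up, 5 to 9 down). Of 35 other genes that the naming rule takes, 534 of 591 values kept direction and side and 57 lost a call. The cause of these shifts was not tested.

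With the replicate number as a block (replicate block), 3374 features, the same number of p53 pathway genes (6), 7 regulators (4 up) and 12 other targets (6 down) were called. The labels do not say whether the numbers pair the libraries. Deviations within a group of 3 cancel out, so their correlations cannot settle it. Same-numbered libraries had correlated deviations from their group means of -0.29, 0.159 and -0.293 for numbers 1, 2 and 3, and no library correlated best with its own number. SESN1 and TP53INP1 had the fewest counts among the 9 genes over the 6 libraries (14 to 146 per library).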
